A study of Mus musculus with 18 samples.

Results

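Tsc22d3, Sgk1, Zbtb16, Ddit4, Zfp36, Bcl6, Hif3a, Arrdc2, Rasd1 and Lcn2 are 10 genes known as direct targets of the glucocorticoid receptor that act in signalling and transcription, and they were followed here across C2C12 myotubes treated with dexamethasone, ginsenoside Rc or both. They were chosen by symbol, each matched to 1 Ensembl gene ID, out of 48795 IDs in the table, and all 10 were found. C2C12 is a mouse myoblast line, so every library comes from 1 cell line, and myotubes are the fused muscle cells it forms, here after 5 days in 2% horse serum. Dexamethasone is a synthetic glucocorticoid and ginsenoside Rc is a saponin of ginseng. There were 6 groups of 3 libraries. Control cells had 0.1% DMSO for 36 h, and ginsenoside Rc alone was given for the same 36 h at a dose of 10 µM (1 group) or 20 µM (1 group). The remaining 3 groups had 200 µM dexamethasone for 24 h, and their first 12 h were in 0.1% DMSO, in ginsenoside Rc at 10 µM or in ginsenoside Rc at 20 µM. Whether the ginsenoside stayed on the cells during those 24 h is not stated in the sources used here. No label says whether replicates were separate cultures, and p-values therefore speak only of how far these libraries scatter, technical scatter included.

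The glucocorticoid receptor is a hormone-activated transcription factor. Bound by a glucocorticoid, it moves to the nucleus and binds DNA as a dimer at an element in which a short stretch like AGAACA is followed, after a spacer, by its own reverse complement, and nearby genes are then transcribed more. In skeletal muscle glucocorticoids are known for slowing protein synthesis, raising protein breakdown and damping inflammatory signals, and the genes described here are known steps on those routes: repressors that act on other transcription factors, a protein that marks mRNAs for decay, kinases and adaptors.

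Promoter sequence was read from RefSeq windows of GRCm38.p6, over the 250 bases before each annotated start, to show which of these genes carry letters of the receptor element right at a start. 8 of the 10 genes had windows, 16 in all; Zbtb16 and Rasd1 had none. The full palindrome, AGAACA, any 3 bases and TGTTCT, searched on both strands, was found in 3 of 32851 windows of all genes (0.00913%), and 1 of the 3 belonged to Sgk1. That window, chr10:21993640-21993889 on the plus strand, lies before the Sgk1 start at 21993890, inside the gene as GENCODE draws it and outside all of its exons. The palindrome, in capitals, lies at 21993701-21993715.
Sgk1: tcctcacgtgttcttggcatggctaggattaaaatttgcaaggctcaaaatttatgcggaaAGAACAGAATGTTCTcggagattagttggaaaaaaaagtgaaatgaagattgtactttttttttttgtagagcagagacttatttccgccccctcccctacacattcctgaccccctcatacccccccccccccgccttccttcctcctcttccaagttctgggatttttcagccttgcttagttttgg
The looser form, GNACA, any 3 bases and TGTNC, with N for any base, was found in 127 windows (0.387%), and among the 16 windows it was again only this 1, at the same place. The core alone, ACA, any 3 bases and TGT, which both longer forms contain and which was chosen after the windows were read, was found in 5.84% of all windows and in 3 of the 16. Those were the window above, another Sgk1 window and the Lcn2 window. The 30 bases around each of the other cores, with the core in capitals, were read at chr10:21978535-21978564 on the plus strand and chr2:32387872-32387901 on the minus strand.
Sgk1 upstream start: tctgtttgaaACAGTTTGTctacatagctg
Lcn2: aagtatttcaACAGAATGTactggcaatta
The 6 letters AGAACA alone, which the full palindrome also holds, were found in 16.1% of all windows and in 5 of the 16, from Tsc22d3, Sgk1 and Bcl6. Arrdc2, whose response to dexamethasone was close to that of Sgk1 in size, is shown for contrast: its window, chr8:70839721-70839970 on the minus strand, held none of the 4 forms.
Arrdc2: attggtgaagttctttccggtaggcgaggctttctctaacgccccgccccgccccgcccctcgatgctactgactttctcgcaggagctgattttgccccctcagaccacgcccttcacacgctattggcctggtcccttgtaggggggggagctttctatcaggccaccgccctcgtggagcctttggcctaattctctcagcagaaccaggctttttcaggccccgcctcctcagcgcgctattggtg
A match is a run of letters and not a measured binding site, and a window without one says only that those letters are not in those bases.

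Between 32.4 and 45.4 Mcounts (1 Mcount is 1000000 expected counts) stood behind each library, and the test covered 15436 genes. Levels are in CPM, counts in 1000000 of the library, scaled by the TMM method. The 9 myotube markers, such as Myog and Ckm, summed to between 21822 and 24066 CPM in every library. Within that sum, 6 of the 9 rose and 1 fell with dexamethasone against control. Ckm rose by 0.77 and Myh3 fell by 0.90 on the log2 scale. The rises of Mymk and Acta1 were not called with library totals alone as scaling. Replicate 2 of the 20 µM ginsenoside group stood apart: 3.33% of the tested genes were over 2-fold from its group's other libraries, against 1.04% to 1.59% for the other 17, and mitochondrial genes took 2.79% of its counts against 1.26% to 1.91%. Calls and signs that change without it are given with and without it. Mitochondrial genes took 1.26% to 1.38% of counts in control and 1.68% to 1.82% with dexamethasone alone, which do not overlap, and the part of this in the results was not tested. The summed markers of all 5 other cell types looked at differed between control and dexamethasone with no overlap. The 8 markers of undifferentiated myoblasts summed to 232 to 240 CPM in control and 146 to 150 with dexamethasone, and the 5 fibroblast markers to 1438 to 1583 and 401 to 470, with Thy1 and Tcf21 at or under 3 counts over each group. Not all members followed the sums. Of the myoblast markers 5 fell, among them Mki67 by 3.41 on the log2 scale, while Myf5, Id3 and Id1 rose by 1.14, 1.24 and 0.77, and of the 3 tested fibroblast markers Col1a1 and Dcn fell by 2.18 and 0.72 while Pdgfra rose by 1.37. The 4 endothelial markers summed to 0.706 to 0.826 and 0.297 to 0.575 CPM, and the leukocyte and adipocyte sums, which were higher with dexamethasone, are given with Lcn2. Their part in the results below was not tested. In bulk RNA, fewer cells of a type and less RNA per cell cannot be told apart.

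The first comparison, dexamethasone against control, asks how these targets respond in myotubes with no ginsenoside. By edgeR's quasi-likelihood test 9 of the 10 rose and none fell, where 20.6% of all tested genes rose. With library totals alone as scaling that background was 15.3%, since the split of all calls moved from 3176 higher and 3578 lower to 2368 and 4392; the same 9 members were called. Bcl6 was the one that did not pass. In all 10 genes each dexamethasone library was above each control library, which held, in that direction, for 28.8% of all tested genes. The median log2 difference was 1.66 over the 10, or 1.65 without Zbtb16, which has no fold of its own, beside -0.01 over all tested genes. These counts and medians need a reservation. Zbtb16, Hif3a, Rasd1 and Lcn2 reached the filter's level of 0.241 CPM in 3 or more libraries only with dexamethasone. A gene at their control level therefore had to be higher with it to be tested at all. Of the 6 that passed without it, 5 rose.

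**Figure D1:**
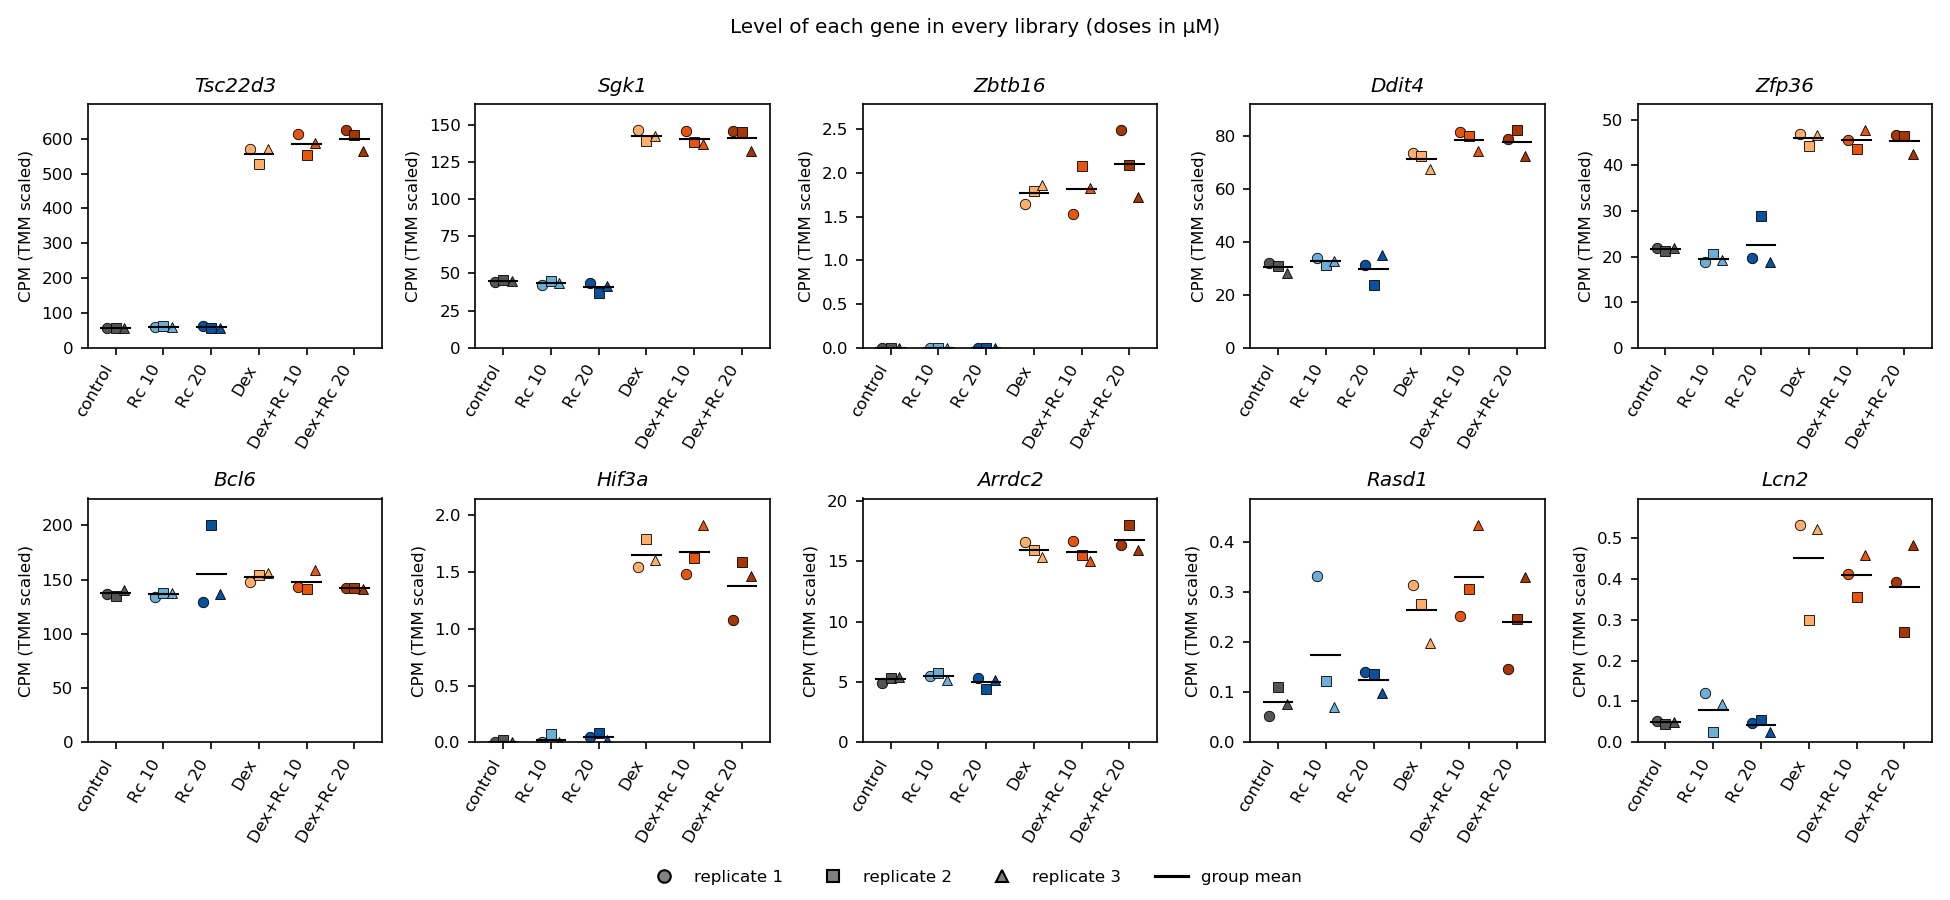
Level of each of the 10 genes in all 18 libraries, in CPM on a linear axis from 0, with 1 panel per gene, 1 symbol per replicate and a bar at the group mean. In all panels but those of Rasd1 and Bcl6, the 9 dexamethasone libraries sit above the others. In Rasd1, replicate 1 of the 10 µM ginsenoside group, at 0.333 CPM, lies within the dexamethasone range. In Bcl6 the 1 high point without dexamethasone, at 201 CPM, is replicate 2 of the 20 µM ginsenoside group.

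Among the regulators of transcription, Tsc22d3 had the highest level under dexamethasone. Tsc22d3 (ENSMUSG00000031431, chrX:140539528-140600659, minus strand) encodes the glucocorticoid-induced leucine zipper, which binds and restrains NF-kB and AP-1. Its level was 58.3, 58.5 and 57.7 CPM in the control libraries and 571, 528 and 572 CPM with dexamethasone. The groups lay far apart and the control libraries were within 1 CPM of each other. The log2 difference was 3.26 ± 0.058 (SE, n = 3 per group, adjusted p = 1.1e-17), or 9.57-fold.

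Zbtb16 and Hif3a were at or near 0 without dexamethasone. Zbtb16 (ENSMUSG00000066687, chr9:48654297-48836222, minus strand) encodes the zinc finger repressor PLZF. It had 0 counts in each of the 9 libraries without dexamethasone and 68, 78 and 75 counts with dexamethasone alone, which is 1.64, 1.80 and 1.86 CPM. A count of 0 gives no fold, so its level was set against a working floor of 3 counts over the whole control group. Against that floor it was 72.0-fold higher (adjusted p = 2.4e-08 for the fitted difference), and a higher floor would give a smaller fold. Hif3a (ENSMUSG00000004328, chr7:17031507-17062427, minus strand) encodes an alpha subunit of the hypoxia-inducible factors, some forms of which restrain the other subunits. It had 0, 1 and 0 counts in control and 64, 78 and 65 with dexamethasone, where it reached 1.65 ± 0.13 CPM (SD, n = 3). The ratio of the summed counts, 207 against 1, was 202 per equal depth, with a 95% counting interval from 35.9 to 8025 (adjusted p = 2.6e-09 for the fitted difference). The direction of both genes is plain from the counts, but the size of the Hif3a fold rests on 1 read, and intervals and floors cover counting error only.

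Bcl6 behaved differently. Bcl6 (ENSMUSG00000022508, chr16:23965052-23988852, minus strand) encodes a BTB and zinc finger repressor, of the same family as PLZF. Its level was 137, 135 and 141 CPM in control and 147, 155 and 157 CPM with dexamethasone, so the groups did not overlap and lay close together. The log2 difference was 0.15 ± 0.11 (SE, n = 3 per group, 95% interval -0.08 to 0.38, adjusted p = 0.28). Replicate 2 of the 20 µM ginsenoside group, which is in neither group but enters the shared estimate of spread, had 201 CPM; without it the difference was again 0.15, with adjusted p = 0.0032. A fit on the control and dexamethasone libraries alone gave 0.16 with adjusted p = 0.0028.

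Zfp36 encodes tristetraprolin, a protein that binds AU-rich elements in mRNAs and brings on their decay. Zfp36 (ENSMUSG00000044786, chr7:28376784-28380253, minus strand) stood at 21.8, 21.3 and 21.95 CPM in control and 46.8, 44.3 and 46.7 CPM with dexamethasone. Every dexamethasone library was above 44 CPM and every control library under 22 CPM. The log2 difference was 1.08 ± 0.11 (SE, n = 3 per group, adjusted p = 1.8e-07). An antisense gene, Gm44710, overlaps it with 47 counts over the control group and 78 with dexamethasone; the sources used here do not give the strand setting of the counting, and reads of the 2 genes may be mixed.

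The genes of the kinase and growth-signal routes, Sgk1 and Ddit4, both rose. Sgk1 (ENSMUSG00000019970, chr10:21882184-21999903, plus strand) encodes a serine/threonine kinase related to Akt, known for keeping sodium channels at the membrane by acting on the ubiquitin ligase Nedd4l. Its level was 44.0, 45.5 and 44.8 CPM in control and 146, 139 and 142 CPM with dexamethasone. The 2 sets were tight and separate, with a log2 difference of 1.67 ± 0.057 (SE, n = 3 per group, adjusted p = 8.3e-14). Ddit4 (ENSMUSG00000020108, chr10:59949669-59951834, minus strand) encodes REDD1, which lowers mTORC1 activity through the Tsc1 and Tsc2 complex. Its level was 31.9, 31.0 and 28.2 CPM in control and 73.5, 72.4 and 67.2 CPM with dexamethasone. Again no library crossed over, and the log2 difference was 1.23 ± 0.099 (SE, n = 3 per group, adjusted p = 1.1e-08).

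Arrdc2 and Rasd1 encode other signalling proteins. Arrdc2 (ENSMUSG00000002910, chr8:70835129-70839720, minus strand) encodes an alpha-arrestin, an adaptor of the family that links membrane proteins to Nedd4-type ubiquitin ligases. Its level was 4.93, 5.32 and 5.42 CPM in control and 16.6, 15.9 and 15.3 CPM with dexamethasone, a log2 difference of 1.61 ± 0.080 (SE, n = 3 per group, adjusted p = 1.5e-11). Rasd1 (ENSMUSG00000049892, chr11:59963181-59964944, minus strand) encodes Dexras1, a Ras-related small GTPase named for its induction by dexamethasone. It had 2, 5 and 3 counts in control and 13, 12 and 8 with dexamethasone. The groups did not overlap, at a depth of few reads per library. The log2 difference was 1.65 ± 0.51 (SE, n = 3 per group, adjusted p = 0.014), and the call was lost without control replicate 1 (1.45, adjusted p = 0.054) or dexamethasone replicate 1 (1.51, adjusted p = 0.051).

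Lcn2 (ENSMUSG00000026822, chr2:32384633-32388252, minus strand) encodes lipocalin 2, a secreted protein that binds bacterial iron carriers. It had 2 counts in each control library and 22, 13 and 21 with dexamethasone, or 0.05 ± 0.0047 and 0.45 ± 0.13 CPM (SD, n = 3). All 3 dexamethasone libraries were well above control, with a log2 difference of 3.11 ± 0.44 (SE, n = 3 per group, adjusted p = 1.1e-05). Lcn2 is also known from neutrophils and fat cells. Of the 8 leukocyte markers, 6 were at or under 3 counts over the group in control and with dexamethasone, where Ptprc, Adgre1, Cd3e, S100a9 and Mpo were at 0, and the list summed to 0.586 to 0.839 and 1.13 to 1.31 CPM. The 2 leukocyte markers that could be tested both rose: S100a8, a neutrophil gene, by 3.33 on the log2 scale (adjusted p = 0.0070) to a mean of 0.192 CPM, and Cd68, a macrophage gene, by 0.59 (adjusted p = 0.044) to 1.01 CPM. Cd68 was not called with library totals alone as scaling (0.52, adjusted p = 0.075). The 5 adipocyte markers summed to 0 to 0.0253 and 3.18 to 4.13 CPM, of which Fabp4 made up 3.68 CPM on average with dexamethasone while Plin1, Cfd and Lep were at 0. The part of such cells in the Lcn2 result was not tested.

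Ordered by level per length, as CPM per kilobase of merged exons, the genes changed places under dexamethasone. In control the order was Bcl6 at 20.5, Ddit4 at 17.3, Tsc22d3 at 13.4, Sgk1 at 9.13, Zfp36 at 6.24, Arrdc2 at 1.62, Rasd1 at 0.0496, Lcn2 at 0.0188, Hif3a at 0.0011 and Zbtb16 at 0 CPM per kilobase. Only Hif3a and Zbtb16, at the bottom, did not differ beyond the spread of the libraries. With dexamethasone it was Tsc22d3 at 128, Ddit4 at 40.5, Sgk1 at 29.1, Bcl6 at 22.8, Zfp36 at 13.2, Arrdc2 at 4.94, Zbtb16 at 0.334, Hif3a at 0.246, Lcn2 at 0.172 and Rasd1 at 0.163 CPM per kilobase. Here only Lcn2 and Rasd1 overlapped. Bcl6 therefore went from the first place to the fourth at a nearly equal level, and Tsc22d3 from the third to the first. With the longest transcript as the length, Tsc22d3 stood above Ddit4 in control, and Sgk1 above Ddit4 and Lcn2 above Hif3a with dexamethasone.

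The closest relatives of these genes did not move as a block with dexamethasone. This list and the lists below were chosen with earlier results of these data known, so their counts are descriptions. Of 20 relatives listed, 15 were tested, 4 rose and 4 fell, near the 20.6% and 23.2% of all tested genes, with a median log2 difference of -0.02, close to the -0.01 of all genes. Beside Tsc22d3, the log2 difference was 0.31 for Tsc22d1 (adjusted p = 1.5e-04), -0.08 for Tsc22d2 (adjusted p = 0.30) and 0.17 for Tsc22d4 (adjusted p = 0.018). With library totals alone as scaling the Tsc22d4 call was lost (0.10, adjusted p = 0.11) and Tsc22d2 was called lower (-0.15, adjusted p = 0.035). Beside Ddit4, which rose, Ddit4l fell by 0.75 on the log2 scale (adjusted p = 9.8e-06), from 5.15 ± 0.025 to 3.07 ± 0.46 CPM (SD, n = 3).

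The tristetraprolin family was split in the same way. Zfp36l1, a sister protein that also binds AU-rich elements, fell by 0.74 on the log2 scale (adjusted p = 7.9e-05), from 182 ± 7.1 to 109 ± 10.2 CPM (SD, n = 3), while Zfp36l2 rose by 0.45 (adjusted p = 1.3e-05). Bcl6b, the close relative of Bcl6, fell by 1.28 (adjusted p = 4.6e-04). Of the oxygen-regulated partners, Epas1 (HIF-2 alpha) rose by 1.59 (adjusted p = 9.9e-07), from 1.52 ± 0.087 to 4.60 ± 0.12 CPM (SD, n = 3), and Hif1a differed by -0.05 (adjusted p = 0.62).

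Among the arrestin-domain genes Arrdc4 fell by 0.96 on the log2 scale (adjusted p = 3.6e-04). Arrdc1 differed by 0.15 and Arrdc3 by 0.01, neither past the threshold, and the sign of Arrdc3 turned with library totals alone as scaling (-0.06). Sgk3 differed by -0.14, Zbtb20 by 0.09 and Txnip by -0.02, none of them past the threshold. Sgk2, Zbtb32, Zfp36l3, Arrdc5 and Rasd2 were too low to test.

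**Figure D2:**
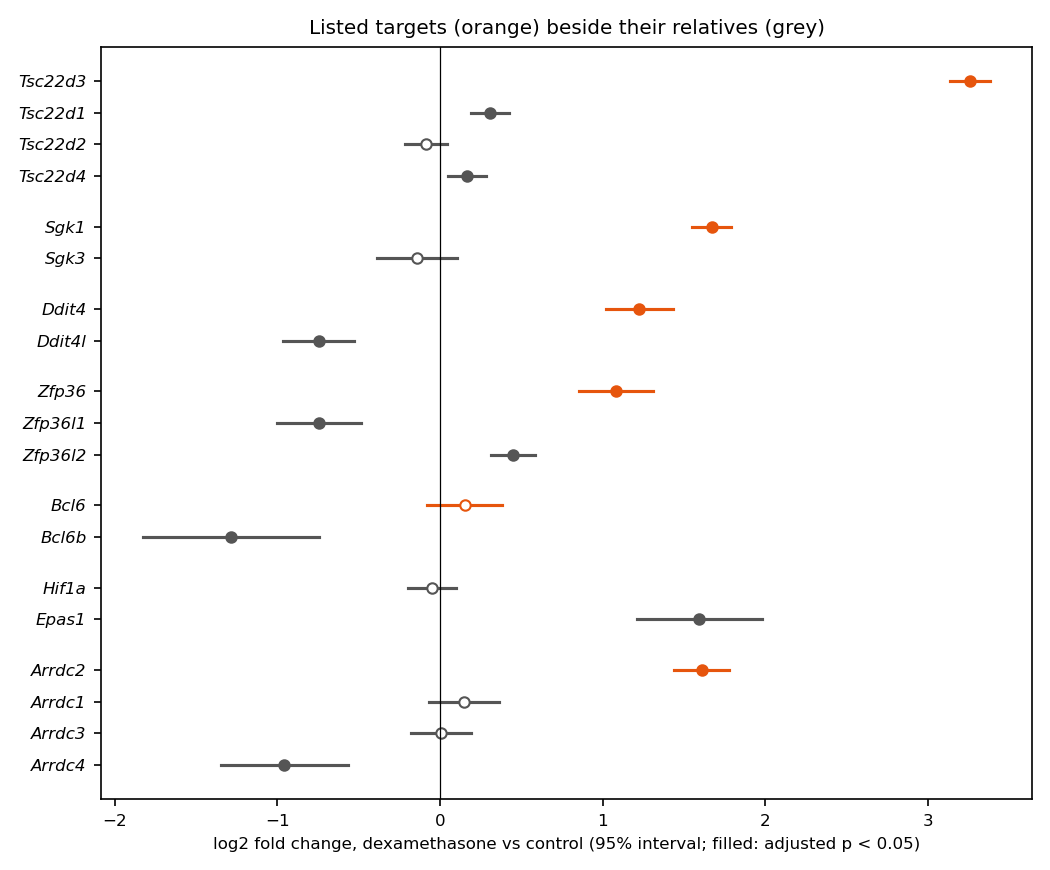
Log2 fold change of dexamethasone against control for 6 of the genes (orange) and tested relatives in their families (grey), with 95% intervals from edgeR and filled points where the adjusted p was under 0.05. Hif3a, whose fold rests on 1 control read, is left out and its relatives Hif1a and Epas1 are shown. Tsc22d3 at 3.26 lies far right of Tsc22d1, Tsc22d2 and Tsc22d4, and Ddit4l, Zfp36l1, Bcl6b and Arrdc4 lie left of 0.

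RNA of the receptor that these genes answer to did not pass the test in dexamethasone against control. It was called lower with dexamethasone in the comparisons at both ginsenoside doses, each against ginsenoside alone. Nr3c1, the glucocorticoid receptor, was at 100.4 ± 4.2 CPM in control and 95.6 ± 1.8 with dexamethasone (SD, n = 3), a log2 difference of -0.07 (adjusted p = 0.23), which was called lower with library totals alone as scaling (-0.14, adjusted p = 0.031). With dexamethasone at 10 µM and 20 µM ginsenoside Rc it fell by 0.21 and 0.14 on the log2 scale (adjusted p = 9.2e-04 and 0.018), and the interactions, -0.14 and -0.07, did not pass (adjusted p = 1 and 0.89). The Nr3c1 values at 20 µM were not followed without the library that stood apart. In dexamethasone against control Nr3c2, the mineralocorticoid receptor, differed by 0.18 (adjusted p = 0.67). Hsd11b1, the enzyme that regenerates active glucocorticoid, rose by 0.70 on the log2 scale (adjusted p = 1.4e-06), from 40.7 ± 1.3 to 66.1 ± 3.9 CPM (SD, n = 3).

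Known partners and effectors of the 10 proteins moved by small amounts. Of 22 listed, 20 were tested, 6 rose and 2 fell, beside 20.6% and 23.2% of all tested genes, with a median log2 difference of 0.05. The largest rises were 0.37 for Tsc1 and 0.23 for Mtor, on the route that REDD1 acts on, and 0.21 for both Nedd4l, the ligase acted on by the Sgk1 kinase, and Egln3, an oxygen sensor of the hypoxia-inducible factors. Ndrg1, a substrate of the Sgk1 kinase, fell by 0.35 on the log2 scale (adjusted p = 0.0011). With library totals alone as scaling only 2 of them were higher, and Nedd4l (adjusted p = 0.074) and Egln3 (adjusted p = 0.14) were among the calls lost. Leaving out 1 library also lowered the count of rises, to 2 without dexamethasone replicate 1 and to 3 without control replicate 2 or dexamethasone replicate 3, and left 1 fall without control replicate 1, 2 or 3 or dexamethasone replicate 3.

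Of 13 mRNAs known to be bound by tristetraprolin, 10 were tested, 7 fell and 2 rose, where 23.2% of all tested genes fell, with a median log2 difference of -0.96. This list too was chosen with earlier results known, and its counts are a description. Ptgs2, the inducible cyclooxygenase, fell by 2.62 on the log2 scale (adjusted p = 1.8e-13), from 21.9 ± 0.25 to 3.54 ± 0.22 CPM (SD, n = 3). The cytokines Il6, Lif and Ccl2 fell by 2.02, 1.92 and 1.58 (adjusted p = 0.0028, 4.8e-11 and 2.1e-06). The Il6 difference was not called with dexamethasone at 10 µM (-0.58, adjusted p = 0.31) or at 20 µM ginsenoside Rc, where its sign was the opposite (0.55, adjusted p = 0.32). The Il6 value at 20 µM was not followed without the library that stood apart. Il1b and Cxcl1 went the other way, with rises of 1.08 and 0.86 (adjusted p = 1.4e-05 and 0.031), so the list did not move in 1 direction. Without control replicate 2, dexamethasone replicate 2 or dexamethasone replicate 3 only 1 of the 2 was called higher.

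Among 30 other genes known to be induced by glucocorticoids, 27 were tested, 21 rose and 4 fell, beside 20.6% and 23.2% of all tested genes. The list was chosen with earlier results of these data known, so these counts describe it and do not test it. The median log2 difference of the 27 was 1.31. That of the 10 genes was 1.66, but 4 of the 10 passed the filter only with dexamethasone. Which of the 27 did so was not counted, so the medians may not be alike in this respect. The largest rises were 7.22 for Sult1a1, a sulfotransferase, 6.65 for Crispld2, a secreted protein, 5.26 for Klf15, a metabolic transcription factor, and 4.76 for Mt2, a metallothionein. The falls were 0.94 for Cdkn1c, 0.90 for Gadd45g, 0.71 for Angptl4 and 0.39 for Foxo1 on the log2 scale. Cdkn1c encodes a cell cycle inhibitor, Angptl4 an inhibitor of lipoprotein lipase and Foxo1 a transcription factor of the atrophy response.

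Dexamethasone was also compared with its absence at each ginsenoside dose. Ginsenoside alone lasted 36 h, and whether it stayed on during the 24 h of dexamethasone is not stated. The groups compared may therefore differ in time on ginsenoside as well as in dexamethasone, which cannot be told apart. No library was shared with the first comparison or between the doses. The fit over all 18 libraries, with its filter and estimate of spread, was shared. At 10 µM 8 of the 10 genes rose and none fell, where 21.1% of all tested genes rose (15.9% with library totals alone as scaling), with a median log2 difference of 1.61. At 20 µM 8 rose and none fell, where 23.5% of all tested genes rose (18.9% with library totals alone), with a median of 1.77. Without Zbtb16 these medians were 1.52 and 1.75. The reservation on the filter holds here too: Zbtb16, Hif3a and Lcn2, counted among the 8, passed it only with dexamethasone, and of the 6 genes that passed without it 5 rose at each dose. In both sets Bcl6 and Rasd1 were the genes that did not pass. In 9 of the 10 genes the groups did not overlap and dexamethasone was above, at 10 µM beside 29.2% and at 20 µM beside 24.5% of all tested genes; Rasd1 was the exception at 10 µM and Bcl6 at 20 µM.

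Tsc22d3, the most abundant target under dexamethasone, stood at 60.2, 62.0 and 61.1 CPM with 10 µM ginsenoside Rc and at 613, 553 and 588 CPM with dexamethasone added. At 20 µM the values were 62.6, 57.3 and 57.6 CPM and 625, 612 and 565 CPM. No library without dexamethasone came near one with it, and the log2 differences were 3.26 ± 0.058 and 3.34 ± 0.058 (SE, n = 3 per group), as in the first comparison. For Sgk1 the log2 differences were 1.69 and 1.79, for Ddit4 1.27 and 1.38, for Zfp36 1.22 and 1.01, and for Arrdc2 1.52 and 1.75, at 10 µM and 20 µM respectively, with adjusted p of 3.7e-07 or lower in each. Without replicate 2 of the 20 µM group the values at 20 µM were 3.32 for Tsc22d3, 1.73 for Sgk1, 1.24 for Ddit4, 1.23 for Zfp36 and 1.68 for Arrdc2.

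Zbtb16 had 0 counts with either dose of ginsenoside alone and 67, 82 and 80 counts with dexamethasone after 10 µM and 102, 93 and 68 after 20 µM. Against the same floor of 3 counts over the group this was 70.2-fold and 84.4-fold higher. Hif3a had 0, 3 and 0 counts at 10 µM and 65, 64 and 84 with dexamethasone added, a ratio of 65.3 with a 95% counting interval from 22.0 to 319. At 20 µM it had 2, 3 and 1 counts and 44, 71 and 58 with dexamethasone added, a ratio of 27.8 (12.5 to 76.7).

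Lcn2 had 4, 1 and 4 counts at 10 µM and 18, 14 and 20 with dexamethasone added, a log2 difference of 2.36 ± 0.41 (SE, n = 3 per group, adjusted p = 1.1e-04). At 20 µM it had 2, 2 and 1 counts and 16, 12 and 19, a log2 difference of 3.09 ± 0.47 (SE, n = 3 per group, adjusted p = 2.4e-05). Both sets repeat the separation seen without ginsenoside. Rasd1 had 11, 5 and 3 counts at 10 µM against 11, 12 and 19 (0.99, adjusted p = 0.071), and 6, 5 and 4 at 20 µM against 6, 11 and 13 (0.93, adjusted p = 0.12). Its 11 counts in replicate 1 of the 10 µM group reach into the dexamethasone range, and without that library the difference was 1.76 (adjusted p = 0.0045).

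For Bcl6 the values were 134, 138 and 138 CPM at 10 µM and 143, 142 and 159 CPM with dexamethasone added, a log2 difference of 0.12 (95% interval -0.11 to 0.35, adjusted p = 0.42). At 20 µM they were 129, 201 and 137 CPM and 143, 142 and 141 CPM, a difference of -0.13 (95% interval -0.36 to 0.10, adjusted p = 0.35). The second difference changed sign with 1 library: without replicate 2 of the 20 µM group it was 0.10 (adjusted p = 0.085), and the difference at 10 µM was 0.12 with adjusted p = 0.019.

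**Figure D3:**
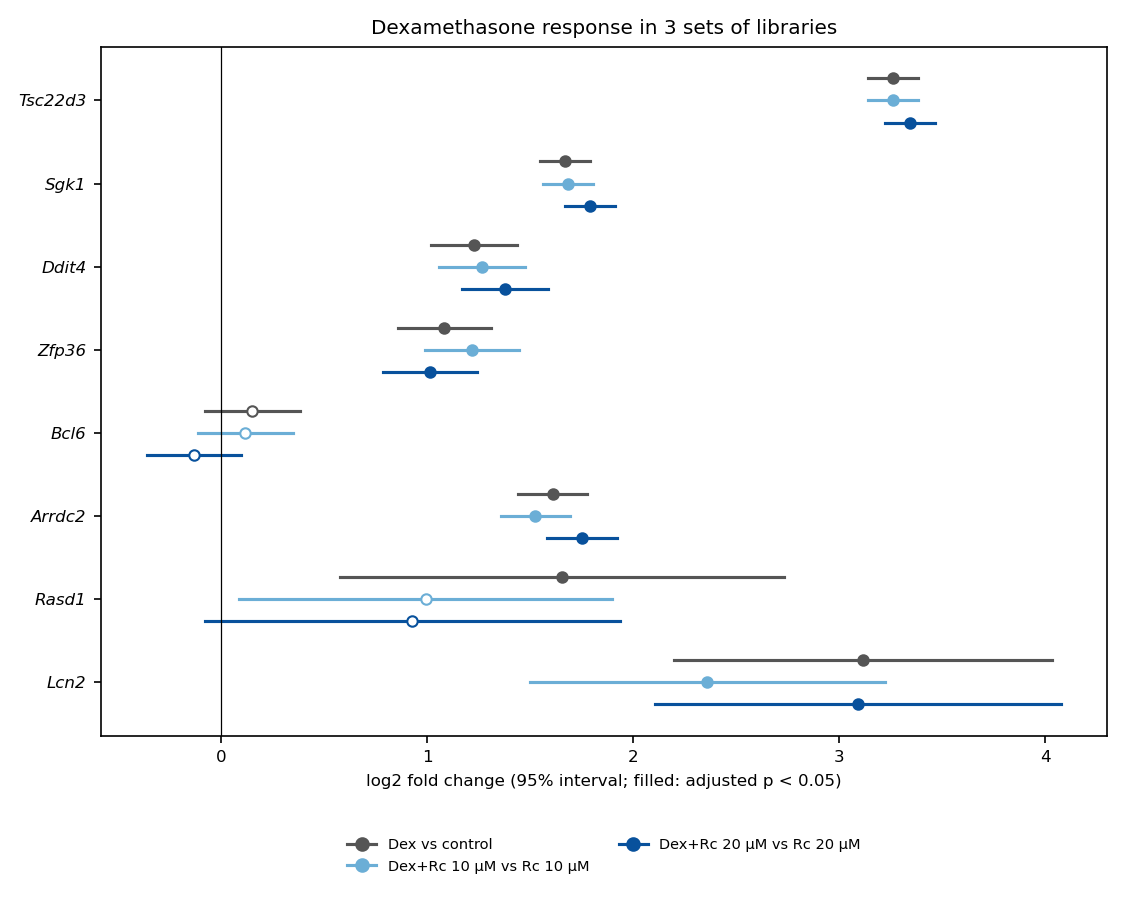
Log2 fold change of dexamethasone against no dexamethasone for 8 of the genes, with no ginsenoside (grey) and with ginsenoside Rc at 10 µM (light blue) or 20 µM (dark blue), with 95% intervals from edgeR and filled points where the adjusted p was under 0.05. Zbtb16 and Hif3a, at or near 0 counts without dexamethasone, are left out. The 3 intervals overlap in each gene, and the Bcl6 points, at 0.15, 0.12 and -0.13, are open.

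In replicate 2 of the 20 µM ginsenoside group, the library that stood apart, Bcl6 was 0.59 and Zfp36 0.58 above the other libraries of its group on the log2 scale, with 201 against a mean of 133 CPM and 28.8 against 19.2 CPM. Ddit4 was 0.49 below, at 23.5 against 33.0 CPM, Arrdc2 0.25 below and Sgk1 0.21 below. Tsc22d3 was 0.07 below. In the 15 libraries of the other 5 groups, these 6 genes lay between -0.16 and 0.16 from the other libraries of their group. The genes that dexamethasone raises did not therefore shift together in this library: Zfp36 was high while Ddit4, Arrdc2 and Sgk1 were low.

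**Figure D4:**
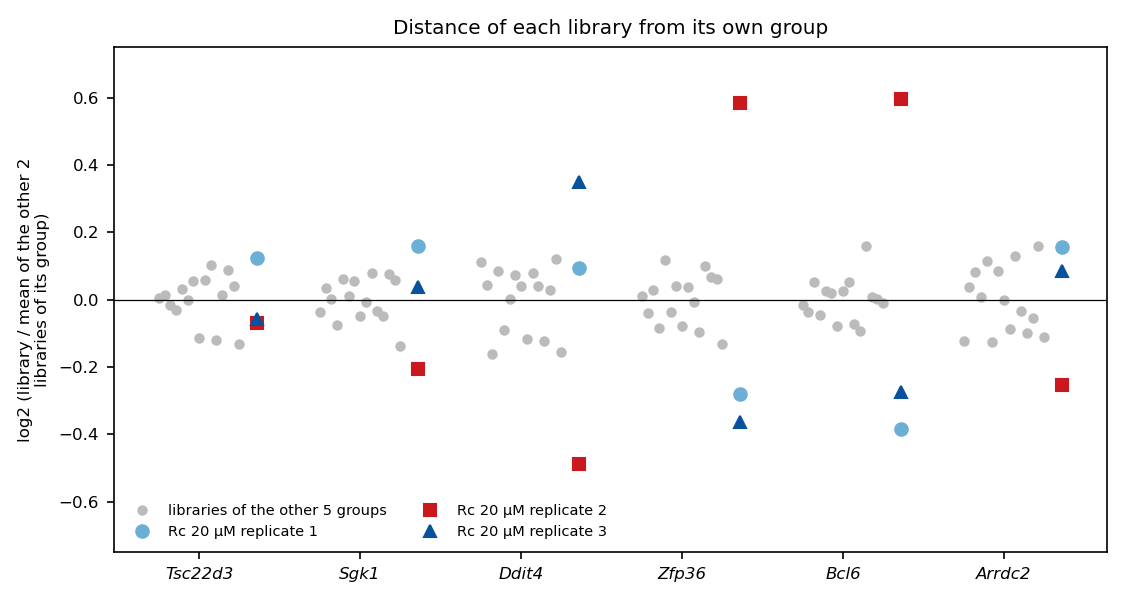
Log2 ratio of each library to the mean of the other libraries of its group, for the 6 abundant genes, with grey points for the other 5 groups and coloured symbols for the 20 µM ginsenoside group. Replicate 2 of that group (red squares) lies near 0.6 in Zfp36 and Bcl6 and near -0.5 in Ddit4; the ratios of replicates 1 and 3 include replicate 2 in their comparison.

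Ginsenoside Rc was compared with control and, under dexamethasone, with dexamethasone alone, to ask whether it moves these genes by itself or changes their level in treated cells. None of the 10 genes passed the test in any of the 4 comparisons by edgeR's quasi-likelihood test, and none passed with DESeq2. Of all tested genes 0.00648% passed at 10 µM and 0.104% at 20 µM against control, and 0.0259% at 10 µM and 0.369% at 20 µM against dexamethasone. At an unadjusted p under 0.05 there were 0, 1, 0 and 0 of the 10 genes in the same order, beside 2.55%, 9.29%, 3.85% and 8.75% of all tested genes. The 2 comparisons with control share the control libraries, and the 2 with dexamethasone share the dexamethasone libraries.

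At 20 µM against control the smallest unadjusted p belonged to Sgk1. Its level was 43.7, 36.9 and 41.4 CPM with ginsenoside and 44.0, 45.5 and 44.8 CPM in control. All 3 ginsenoside libraries were below control, the lowest being the library that stood apart. The log2 difference was -0.14 ± 0.057 (SE, n = 3 per group, 95% interval -0.26 to -0.02, adjusted p = 0.51), and it was -0.07 without that library. Hif3a was second, with 6 counts over the 3 ginsenoside libraries against 1 in control, a ratio of 6.10 whose 95% counting interval runs from 0.740 to 281 (adjusted p = 0.55), and 3 of the 6 counts were in the library that stood apart. No other gene of the 10 had groups apart in this comparison, where 11.7% of all tested genes did. Without the library that stood apart, the means of Bcl6, Zfp36, Ddit4 and Arrdc2 moved to the other side of the control mean. They were 156, 22.4, 29.8 and 4.98 CPM with it and 133, 19.2, 33.0 and 5.26 CPM without it. Control means were 138, 21.7, 30.4 and 5.23 CPM.

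At 10 µM against control the smallest p-values were those of Rasd1, at 0.99 ± 0.57 on the log2 scale (SE, n = 3 per group, adjusted p = 1), and Zfp36, at -0.15 ± 0.11 (SE, n = 3 per group, adjusted p = 1). Without replicate 1 of the 10 µM group, which held 11 of that group's 19 Rasd1 counts, the log2 difference was 0.23. The Zfp36 values were 18.8, 20.6 and 19.2 CPM, all below the control values given above. Those of Tsc22d3 were all above control, by 0.07 on the log2 scale. These 2 of 10 genes with groups apart stand beside 12.1% of all tested genes.

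Under dexamethasone, 10 µM ginsenoside gave its smallest p for Ddit4, at 81.3, 79.95 and 74.1 CPM against 73.5, 72.4 and 67.2 CPM. The ginsenoside libraries were all above, with a log2 difference of 0.14 ± 0.095 (SE, n = 3 per group, adjusted p = 1). Tsc22d3 followed, at 0.07 ± 0.052 (SE, n = 3 per group, adjusted p = 1). Ddit4 was the 1 gene of the 10 with groups apart, beside 10.8% of all tested genes.

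At 20 µM under dexamethasone Tsc22d3 stood at 625, 612 and 565 CPM against 571, 528 and 572 CPM, which overlap. The log2 difference was 0.11 ± 0.052 (SE, n = 3 per group, 95% interval -0.00 to 0.22, adjusted p = 0.58). Zbtb16, at 102, 93 and 68 counts against 68, 78 and 75, differed by 0.25 ± 0.18 (SE, n = 3 per group, adjusted p = 0.85). Bcl6 was the 1 gene with groups apart, all lower with ginsenoside by 0.11 on the log2 scale, beside 14.9% of all tested genes. Over the 4 comparisons, the 95% intervals of Tsc22d3, Sgk1, Ddit4, Zfp36, Bcl6 and Arrdc2 lay between -0.38 and 0.41. Those of the sparse genes Hif3a, Rasd1 and Lcn2 reached past 1 in at least 1 comparison each. Differences of that size in these sparse genes are therefore not excluded.

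**Figure D5:**
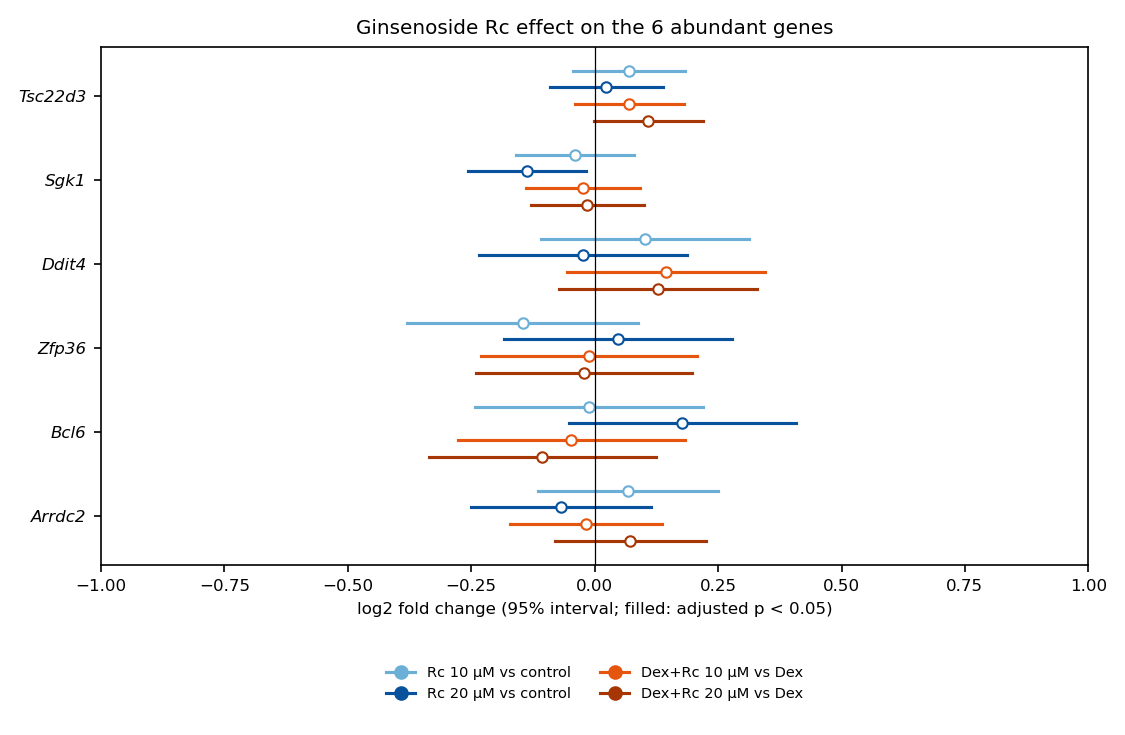
Log2 fold change with ginsenoside Rc for the 6 abundant genes, against control (blue) or against dexamethasone alone (orange and brown), with 95% intervals from edgeR. All 24 points are open (adjusted p of 0.05 or more), and the 1 interval that leaves 0 is that of Sgk1 at 20 µM against control, from -0.26 to -0.02.

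Whether ginsenoside changed the dexamethasone response was tested as the interaction, the difference between the responses with and without it. As said above, the responses with ginsenoside may also hold a difference in time on ginsenoside. None of the 10 genes passed at either dose by edgeR or DESeq2, and 0% of all tested genes passed by edgeR at either dose, with 0 genes at 10 µM and 1 at 20 µM by DESeq2. At an unadjusted p under 0.05 there were 0 of the 10 genes at 10 µM, beside 2.12% of all genes, and 1 at 20 µM, beside 5.28%. That 1 was Hif3a, whose fitted response was lower by 2.50 ± 1.13 on the log2 scale at 20 µM (SE, n = 3 per group, adjusted p = 0.88); it rests on the 1 and 6 counts of the groups without dexamethasone. At 10 µM Hif3a differed by -1.33 ± 1.27 (SE, n = 3 per group, adjusted p = 1) and Lcn2 by -0.76 ± 0.69 (SE, n = 3 per group, adjusted p = 1). At 20 µM Bcl6 differed by -0.28 ± 0.15 (SE, n = 3 per group, adjusted p = 0.88), and by -0.06 without replicate 2 of the 20 µM group. For the most precisely measured gene, Tsc22d3, the interaction at 20 µM was 0.08 with a 95% interval from -0.07 to 0.24.

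The genes whose levels ran most like each of the 10 over the 18 libraries were, with Pearson's r of log2 CPM, Fkbp5 for Tsc22d3 (0.999), Mcf2l for Sgk1 (0.998), Glul for Zbtb16 (0.999), Ppp1r14c for Ddit4 (0.994), Cdh13 for Zfp36 (0.994), Ciz1 for Bcl6 (0.956), Dpep1 for Hif3a (0.989), Kcnk5 for Arrdc2 (0.997), Sypl2 for Rasd1 (0.881) and Kcnmb4 for Lcn2 (0.971). For the genes that rose with dexamethasone, these values mostly describe the step between 9 libraries with and 9 without it. Bcl6 did not pass the test of that step, and its highest value, 201 CPM, was in the library that stood apart. Fkbp5, a receptor cochaperone, and Glul, glutamine synthetase, themselves rose by 4.17 and 2.28 on the log2 scale with dexamethasone. Among the 9 dexamethasone libraries alone the closest genes were others, such as Pdk2 for Tsc22d3 (0.979), Sptlc2 for Sgk1 (0.967) and Rbm39 for Ddit4 (0.970).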

How the data were processed

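The libraries were poly-A RNA, sequenced in pairs of 100 bp from a strand-directional kit, as the labels' protocols state. The authors deposited 1 table of expected counts per Ensembl gene, the estimated fragments that RSEM gives, of which 9.27% were not whole. FastQC 0.11.9, Trim Galore 0.6.5, STAR 2.7.3a, RSEM 1.3.3 and build GRCm38 are named in the submitters' processing notes, and for the annotation release and strand setting nothing is given in the sources used here. Symbols and coordinates came from GENCODE M21, and IDs it does not name held 0.0185% of counts.

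Expected counts were rounded. Of 26796 genes with any count, filterByExpr kept 15436, which were TMM scaled and fitted with 1 mean per group over all 18 libraries in edgeR 4.0.16 (robust quasi-likelihood, R 4.3.3), with Benjamini-Hochberg adjustment over all tested genes at 0.05. The standard error is the log2 fold change over the square root of F. Correlations used log2 CPM with a prior count of 2, over genes with an average of at least 1.

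The genes and lists were chosen with earlier results of these data known. All 10 genes are named with dexamethasone; in other comparisons those that pass and the 2 with the smallest p; in each list the 4 largest rises and falls and the relatives of the same family, with others named only to show a call that depends on the scaling. Alternatives were other scalings, no filter, DESeq2 1.42.0, only the compared groups, a replicate block and leaving out each library. The script was tested on simulated data. 1 gene of the partner list is counted there and not reported here by name.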

Additional observations from a re-analysis of the deposited data

How the results depend on the processing

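The number of the 10 genes called stayed within 1.5 times its main value in each alternative of the 9 comparisons. Leaving out 1 library gave 8 to 10 for dexamethasone against control, 8 to 9 at 10 µM, 8 to 8 at 20 µM, and 0 to 0 for ginsenoside and the interactions. Values for single genes were followed for all 10 genes where dexamethasone was compared with its absence. In the other comparisons they were followed only for the 2 genes with the smallest p. Among the values followed, the sign reversed in 2 cases. The Hif3a interaction at 10 µM ran from -3.20 to 1.90, the last without replicate 2 of the 10 µM group, which held its 3 counts. The Bcl6 response at 20 µM ran from -0.25 to 0.10, the last without replicate 2 of that group.

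The labels give the groups the same replicate numbers. Over 45 same-numbered pairs the correlation of deviations ran from -0.408 to 0.45 with a median of 0.0206, and 8 of 18 libraries were closest to their own number, so the numbers were not taken as pairs. A replicate block left 9, 8 and 8 of the 10 genes called for dexamethasone and 0 elsewhere, and over all genes 1 instead of 4 for 10 µM under dexamethasone.

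Counts over all tested genes with ginsenoside depended on the settings. Main counts were 1 and 16 against control and 4 and 57 under dexamethasone, at 10 µM and 20 µM. DESeq2 gave 5, 107, 17 and 258. Without the filter they were 2, 28, 4 and 95, and with only the groups compared 8, 0, 1 and 77. Without replicate 2 of the 20 µM group they were 3, 44, 15 and 341. Leaving out other libraries gave as few as 0, 5, 0 and 6. The interaction at 20 µM had 0, and 1 with DESeq2 or no filter. Levels per kilobase depended on the length used. The cause of these changes was not tested. Depth limits Hif3a, Rasd1 and Lcn2, with 0 to 22 counts per library outside the dexamethasone values of Hif3a.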

Other observations

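The lists around the 10 genes were also counted in the libraries with ginsenoside Rc. These are not part of dexamethasone against control but enter the same fit. The list counts at 20 µM were not repeated without the library that stood apart. Of all 15436 tested genes 3264 (21.1%) rose and 3556 fell with dexamethasone at 10 µM, and 3630 (23.5%) rose and 3924 fell at 20 µM. Of the 27 tested glucocorticoid-induced genes, 21 rose and 5 fell with dexamethasone at 10 µM, with a median log2 difference of 1.45, and again 21 rose and 5 fell at 20 µM, with a median of 1.51. Of the 15 tested relatives, 4 rose and 5 fell at 10 µM and 3 rose and 4 fell at 20 µM, with medians of 0.00 and -0.02. The 10 tested mRNAs bound by tristetraprolin gave 2 rises and 6 falls at each dose, with medians of -0.67 and -0.58. Of the 20 tested partners and effectors, 5 rose and 2 fell at 10 µM, and 8 rose and 1 fell at 20 µM. The receptor list gave 1 rise, Hsd11b1, and 1 fall, Nr3c1, at each dose. None of the genes of these lists passed edgeR's test in the 4 ginsenoside comparisons or in the interactions.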
